A study of Mus musculus with 15 samples.

Results

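Mitochondrial ribosomal proteins were described here across resting and activated mouse lymphocytes. Members were all genes with a probe set annotated to 1 symbol that starts with Mrpl or Mrps and a digit, and each gene was represented by its probe set with the highest mean over the 15 arrays. This gave 76 genes of the 18194 on the arrays, 47 named for the large subunit and 29 for the small subunit, and all 76 were among the 9045 genes tested. They have 156 probe sets in all, and 42 of the genes have more than 1. A further 2 genes, Mrpl30 and Mrpl53, were left out because their probe sets are listed together with another gene.

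Spleen B cells and T cells of B6x129 mice were profiled on Affymetrix 3′ expression arrays, with 100 ng of RNA labelled for each array. The 5 groups have 3 arrays each. They are B cells given 25 ug/ml lipopolysaccharide (LPS, a bacterial activator of B cells) for 4 h, B cells at 0 h, T cells at 0 h, and T cells kept for 4 h or for 14 h in concanavalin A (ConA, a plant lectin that activates T cells) at 7.5 ug/ml. No group was cultured without the activator, so time in culture and activation cannot be told apart. The sources used here do not say how the cells were purified or whether replicates came from separate animals or cultures, so p-values measure only the spread between these samples.

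Mitochondria keep their own ribosome, which makes the few membrane proteins of the respiratory chain that mitochondrial DNA encodes. All of its proteins are encoded in the nucleus, made in the cytosol and imported, while its ribosomal RNAs are transcribed inside the organelle. Lymphocytes that leave quiescence grow and build mitochondrial mass before they divide. Symbols do not always give the subunit: in mammalian structures the products of Mrps18a and Mrps30 sit in the large subunit, and the product of Mrps36 is now known as a subunit of the oxoglutarate dehydrogenase complex. These 3 genes were kept in the small subunit by symbol, and counts without them are given once below.

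Promoter sequence was matched for 67 of the 76 genes, as 73 windows of 300 bases that run from 250 before to 50 after an annotated start (RefSeq, GRCm38.p6). Shown are the windows of the 3 genes that rose most in B cells and of Mrpl18, which fell there. Mrps16 and Mrpl49 fell more and are not shown. The rule for this choice took account of the motifs, named below, that a window held or lacked. Mrpl46 is shown because its start lies 42 bases from that of the small subunit gene Mrps11 on the other strand; it was chosen after its values were seen. Each is printed 5′ to 3′ on the gene's own strand, with matches to the searched motifs in capitals.
Mrps6, chr16:92058086-92058385, plus strand: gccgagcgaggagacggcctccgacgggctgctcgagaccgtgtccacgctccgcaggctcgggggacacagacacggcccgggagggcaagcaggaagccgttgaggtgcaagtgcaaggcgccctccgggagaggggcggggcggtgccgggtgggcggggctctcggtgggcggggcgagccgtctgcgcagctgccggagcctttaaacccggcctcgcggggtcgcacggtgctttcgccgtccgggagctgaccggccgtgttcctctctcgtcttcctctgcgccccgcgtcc
Mrps27, chr13:99344536-99344835, plus strand: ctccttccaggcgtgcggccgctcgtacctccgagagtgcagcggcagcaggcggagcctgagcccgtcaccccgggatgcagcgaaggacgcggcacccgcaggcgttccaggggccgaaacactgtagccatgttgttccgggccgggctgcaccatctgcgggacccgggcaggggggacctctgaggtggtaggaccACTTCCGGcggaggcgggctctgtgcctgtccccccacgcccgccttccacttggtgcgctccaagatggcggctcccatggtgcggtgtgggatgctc
Mrpl17, chr7:105811038-105811337, minus strand: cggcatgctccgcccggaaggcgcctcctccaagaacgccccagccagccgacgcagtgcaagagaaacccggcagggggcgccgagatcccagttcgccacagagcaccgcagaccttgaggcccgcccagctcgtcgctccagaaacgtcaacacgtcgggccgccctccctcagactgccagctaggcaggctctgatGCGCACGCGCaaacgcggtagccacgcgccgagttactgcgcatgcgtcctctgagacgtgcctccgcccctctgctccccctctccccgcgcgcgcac
Mrpl18, chr17:12916042-12916341, minus strand: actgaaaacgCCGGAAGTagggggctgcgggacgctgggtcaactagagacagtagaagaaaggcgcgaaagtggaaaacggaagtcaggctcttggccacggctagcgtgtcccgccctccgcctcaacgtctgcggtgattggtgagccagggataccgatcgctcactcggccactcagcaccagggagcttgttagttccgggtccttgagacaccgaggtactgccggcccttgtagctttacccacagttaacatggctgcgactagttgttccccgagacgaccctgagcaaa
Mrpl46, chr7:78783040-78783339, minus strand: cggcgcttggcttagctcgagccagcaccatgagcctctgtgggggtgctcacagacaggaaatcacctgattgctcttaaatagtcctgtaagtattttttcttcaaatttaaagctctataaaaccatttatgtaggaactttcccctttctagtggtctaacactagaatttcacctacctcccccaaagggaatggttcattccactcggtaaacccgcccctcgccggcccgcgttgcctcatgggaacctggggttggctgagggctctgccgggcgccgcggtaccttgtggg
The motifs searched on both strands were GCGCA, any 1 base and GCGC in a row, the form bound by the factor NRF1, CCGGAAGT, the core bound by ETS factors such as GABP, and CACGTG, the E-box bound by Myc and related factors. No motif contains another. The window of Mrps27 has the ETS motif at position -49 from the start, that of Mrpl17 has the NRF1 motif at -49, and that of Mrpl18 has the ETS motif at -240. The windows of Mrps6 and Mrpl46 hold none of these letters.

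Over all members, the NRF1 motif was in 16.4% of windows, against 6.38% of the 21262 windows of all protein-coding genes in the table. The ETS motif was also in 16.4%, against 5.15%. The E-box was in 9.59%, against 7.84%. Counted by gene, the NRF1 and ETS motifs were each in 12 of the 67 members (17.9%), against 7.17% and 5.69% of all genes, and the E-box in 5 (7.46%), against 8.91%, so that the E-box shares by window and by gene differ in direction. Member windows were somewhat richer in G and C (median 58.7%, against 56.3% in all windows). Among all windows within the members' middle range of G and C content, 53.0% to 64.7%, the shares were 7.99% for NRF1, 7.38% for ETS and 9.47% for the E-box. At least 1 of the 3 motifs was in 27 of the 67 genes (40.3%), against 19.5% of the 17491 genes in the table. These shares describe letters and were not tested.

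Arrays of a group correlated at 0.995 to 0.999 over all probe sets, and arrays of different groups at 0.893 to 0.990. In a pair of arrays the 5′ end of the dap spike-in control was weak: its 3′ minus 5′ difference was 4.59 in T cells at 0 h replicate 2 and 5.94 in T cells at 4 h replicate 1, against 1.82 to 2.67 in the other T cell arrays and 0.90 to 1.44 in B cells. Counts without both arrays are given beside each comparison. The B cell marker list averaged 10.67 to 10.86 over the LPS arrays, 12.65 to 12.69 over the 0 h B cell arrays and 4.10 to 5.00 over T cell arrays, where Cd79a and Pax5 were at background. The T cell list averaged 10.80 to 11.61 in T cells and 2.94 to 3.27 in B cells, where Cd3d, Cd3g, Thy1, Trat1 and Cd8b1 were at background. The labels and the markers therefore match. In bulk samples, fewer cells of a type and less RNA per cell cannot be told apart.

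**Figure D1:**
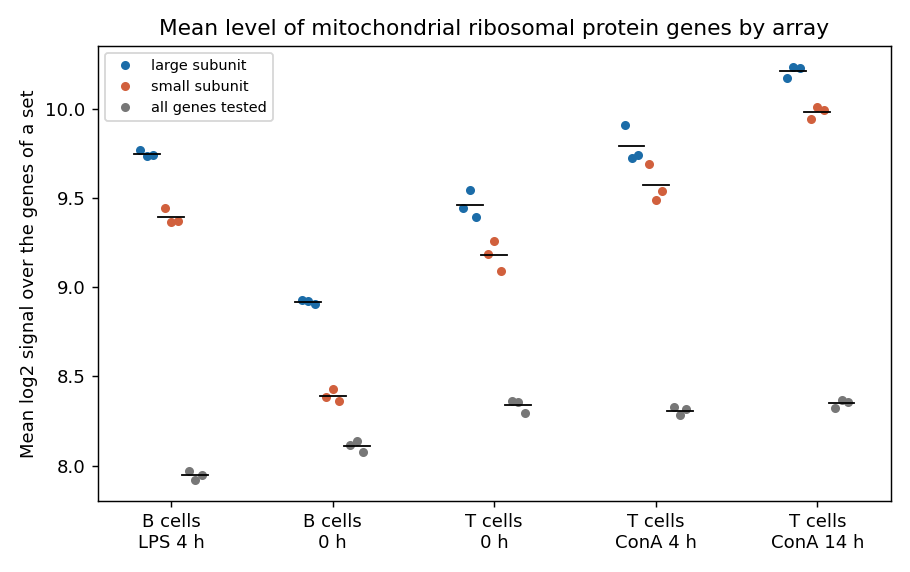
Mean log2 signal over the large subunit genes (47), the small subunit genes (29) and all genes tested (9045), 1 point per array and a bar at the mean of 3 arrays, in the 5 groups. Both subunits stand higher in LPS-treated than in 0 h B cells and climb from 0 h to 14 h in T cells, while the mean of all genes stays between 7.95 and 8.35.

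The mean log2 signal of the large subunit genes was 9.77, 9.74 and 9.74 on the 3 LPS arrays, against 8.93, 8.93 and 8.91 on the 0 h B cell arrays. The small subunit genes averaged 9.44, 9.36 and 9.37 with LPS, against 8.38, 8.43 and 8.36 at 0 h. In both subunits every LPS array lay above every 0 h array of B cells. The T cell arrays at 0 h averaged 9.46 ± 0.08 over the large subunit genes, those at 4 h 9.79 ± 0.10 and those at 14 h 10.21 ± 0.03 (SD, n = 3 each). Over the small subunit genes these means were 9.18 ± 0.08, 9.57 ± 0.10 and 9.98 ± 0.04. The arrays of the 3 times did not overlap in either subunit. Replicate 1 stood highest of the 4 h arrays and replicate 2 highest of the 0 h T cell arrays. Both are arrays with the weak spike-in. Over all genes tested the mean was 7.95 with LPS and 8.11 at 0 h in B cells, and 8.34, 8.31 and 8.35 at 0 h, 4 h and 14 h in T cells. The level of 1 subunit was not set against that of the other, since probe sets differ in how brightly they hybridise.

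Most mitochondrial ribosomal protein genes were higher in B cells after 4 h of LPS. Of the 76, 63 rose, 4 fell and 9 did not pass the test, with 39 rises and 3 falls in the large subunit and 24 rises and 1 fall in the small subunit (limma, Benjamini-Hochberg adjusted p under 0.05 over all 9045 genes). Of all genes tested, 37.6% rose and 42.3% fell. The median change of the members was 0.81 on the log2 scale, 0.77 in the large subunit and 0.84 in the small, against -0.05 over all genes. At least 2-fold rises were seen in 32 members (42.1%), against 18.7% of all genes. In 70 (92.1%) the LPS arrays did not overlap the 0 h arrays, against 81.6% of all genes. With Mrps18a and Mrps30 moved to the large subunit and Mrps36 left out, 41 of 49 large and 21 of 26 small subunit genes rose. Without both T cell arrays with the weak spike-in the count was 64 up and 5 down.

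**Figure D2:**
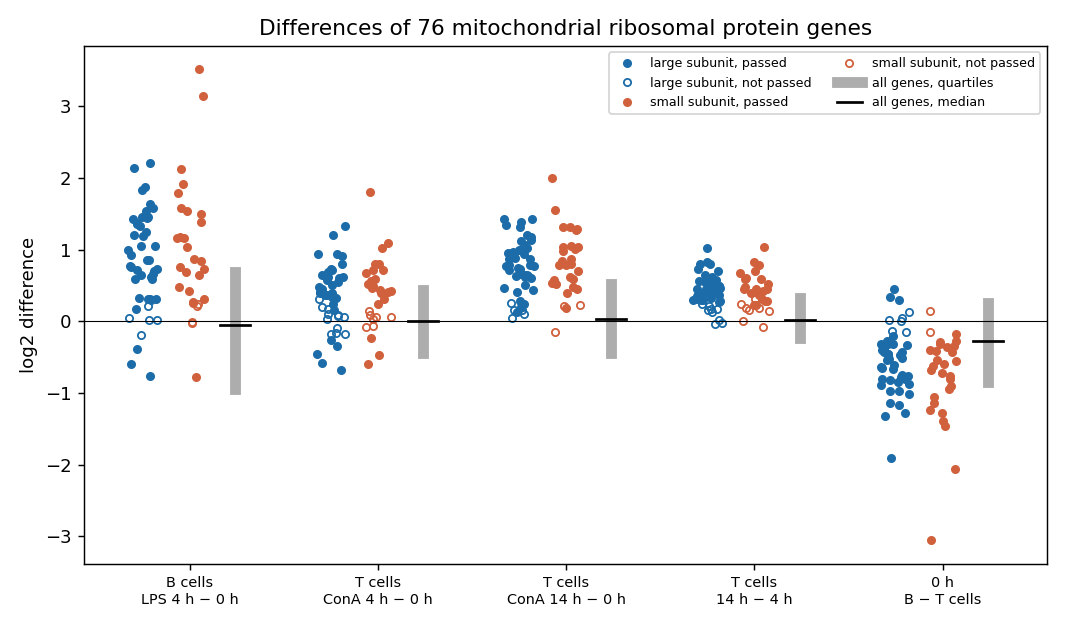
log2 differences of the 76 genes in 5 comparisons, 1 point per gene, filled where it passed the test (limma, adjusted p under 0.05). Grey bars span the quartiles of all genes tested and black lines their median; the members lie mostly above them in the 4 activation comparisons and mostly below in B against T cells at 0 h.

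Mrps6, the counterpart of a bacterial small subunit protein, had the largest measured change of the 76. Its signals were 9.78, 9.68 and 9.46 with LPS, against 5.54, 6.50 and 6.34 at 0 h. The lowest LPS array was well above the highest 0 h array, and the change was 3.52 ± 0.19 (standard error), or 11.4-fold (adjusted p = 4.79e-10). A dimmer probe set for the same gene changed by 3.86. Mrps27, a small subunit protein of the pentatricopeptide repeat family with no bacterial counterpart, read 7.27, 7.30 and 7.36 with LPS, against 4.45, 4.38 and 3.67 at 0 h. The arrays were far apart, and the change was 3.15 ± 0.16 (adjusted p = 2.39e-10); its 0 h signals were low on a scale whose floor is 2.24. Mrpl17, which lies near the exit of the peptide tunnel, read 11.06, 11.01 and 11.07 with LPS, against 8.83, 8.90 and 8.77 at 0 h. The groups were far apart and the change was 2.21 ± 0.09 (adjusted p = 2.42e-11).

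The other 5 of the largest rises were Mrpl50, Mrps28, Mrps18b, Mrpl12 and Mrpl38, at 1.84 to 2.13. Mrpl38, a mitochondrion-specific protein of the central protuberance, read 9.49, 9.44 and 9.39 with LPS, against 7.72, 7.53 and 7.54 at 0 h. Mrps28 read 9.87, 9.74 and 9.65 with LPS, against 7.72, 7.69 and 7.46 at 0 h. Neither gene had overlapping arrays, and the adjusted p was 3.58e-11 for Mrpl38 and 6.62e-11 for Mrps28. Mrpl50, a mitochondrion-specific protein, read 9.22, 9.11 and 9.19 with LPS, against 6.95, 7.45 and 6.71 at 0 h, the widest 0 h spread of these 5.

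The 4 members that fell were Mrps16, Mrpl49, Mrpl18 and Mrpl34. Mrps16, a core small subunit protein with a bacterial counterpart, read 9.13, 9.09 and 8.89 with LPS, against 9.75, 9.72 and 9.96 at 0 h. It fell by 0.77 on the log2 scale (standard error 0.09, adjusted p = 3.37e-06), with no overlap between the arrays. Mrpl49 read 7.62, 7.67 and 7.63 with LPS, against 8.41, 8.37 and 8.45 at 0 h, a change of -0.77 ± 0.07 (adjusted p = 2.5e-07). This was a tight difference, with each group within 0.1 of its mean. A dimmer probe set for Mrpl49 changed by -0.39, which also passed. Mrpl18, whose bacterial counterpart binds the small ribosomal RNA of the large subunit, read 9.50, 9.50 and 9.34 with LPS, against 10.03, 10.25 and 9.84 at 0 h, a change of -0.60 ± 0.09 (adjusted p = 3.99e-05). Mrpl34 changed by -0.38 ± 0.10 (adjusted p = 0.00245), again without overlap. The 9 genes that did not pass were Mrps25 (0.25), Mrps24 (0.22), Mrpl52 (0.22), Mrpl4 (0.04), Mrpl33 (0.03), Mrpl28 (0.02), Mrps26 (-0.01), Mrps18c (-0.02) and Mrpl57 (-0.19).

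**Figure D3:**
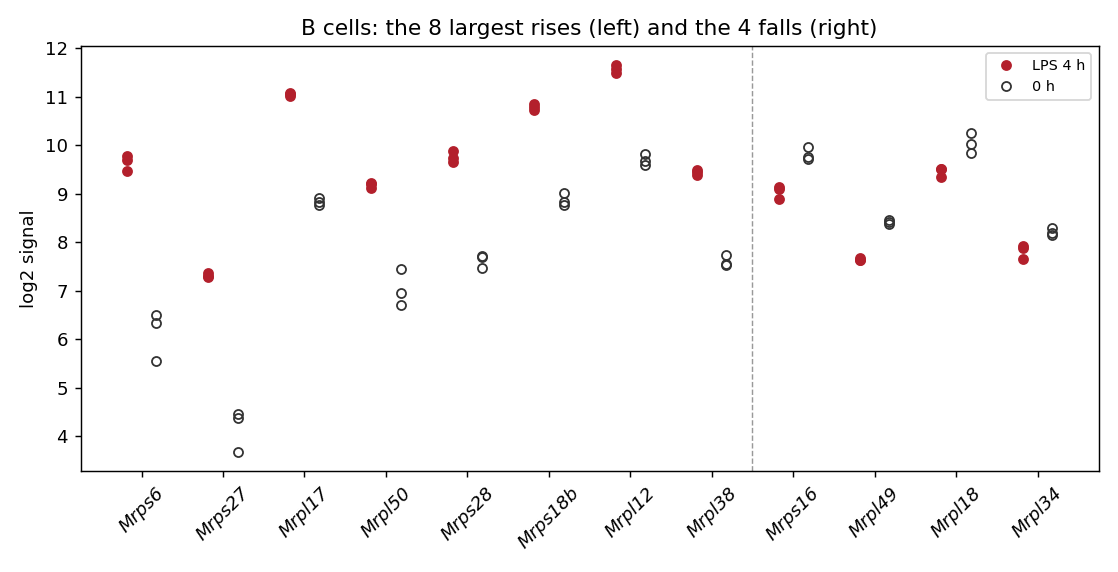
log2 signal of single arrays for the 8 largest rises and the 4 falls in B cells, with LPS 4 h as filled and 0 h as open circles. In none of the 12 genes do the 3 LPS arrays overlap the 3 arrays at 0 h.

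Markers of other cells moved in the same B cell comparison. The 8 monocyte, macrophage and neutrophil markers averaged 5.43 to 5.69 on the LPS arrays and 8.47 to 8.53 at 0 h, and 6 of 7 tested fell. The 6 erythroid markers on the array averaged 7.39 to 7.57 with LPS and 8.69 to 8.81 at 0 h, and 5 of 5 tested fell. B cell markers fell too, 7 of 8. Cd14 was at background in both groups and Csf1r in the LPS group only, and Hba-a1 was at background in both. The 4 plasma cell markers averaged 6.42 to 6.51 with LPS and 7.99 to 8.31 at 0 h, the 4 dendritic cell markers 5.31 to 5.37 with LPS and 4.47 to 4.70 at 0 h, and the 4 natural killer markers 2.86 to 3.16 with LPS and 4.08 to 4.23 at 0 h. The part these shifts have in the changes of the members was not tested.

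T cells showed rises at both times. After 4 h of ConA 49 rose, 8 fell and 19 did not pass (limma adjusted p under 0.05), with 30 rises and 5 falls in the large subunit and 19 rises and 3 falls in the small. Of all genes tested, 33.4% rose and 32.5% fell. The median change was 0.39, 0.37 in the large and 0.43 in the small subunit, against 0.00 over all genes. At least 2-fold rises were seen in 5 members (6.58%), near the 9.34% of all genes. Without both arrays with the weak spike-in, 48 rose and 9 fell, and the median change was 0.38. It was 0.33 without only T cells at 4 h replicate 1, and 0.44 without only T cells at 0 h replicate 2.

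Mrps6 again had the largest rise, with signals of 9.15, 9.34 and 9.06 at 0 h and 11.14, 10.88 and 10.94 after 4 h. The times were clearly apart, and the change was 1.81 ± 0.19 (limma adjusted p = 1.46e-06). Mrpl17 read 9.17, 9.31 and 8.98 at 0 h and 10.65, 10.40 and 10.40 at 4 h, a change of 1.33 ± 0.09 (adjusted p = 1.71e-08). Mrps10, the counterpart of a bacterial protein of the small subunit head, read 8.55, 8.54 and 8.37 at 0 h and 9.64, 9.56 and 9.53 at 4 h, a change of 1.09 ± 0.07 (adjusted p = 6.96e-09). None of these genes had overlapping arrays. The remaining large rises were Mrpl54 (1.21 ± 0.12), Mrps18b (1.03 ± 0.08), Mrpl21 (0.94 ± 0.08), Mrpl20 (0.94 ± 0.10) and Mrpl12 (0.91 ± 0.09).

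The 8 falls at 4 h were small. Mrpl58, also named Ict1, a peptidyl-tRNA hydrolase of the large subunit that frees stalled mitochondrial ribosomes, read 10.61, 10.80 and 10.65 at 0 h and 10.18, 9.98 and 9.87 at 4 h. The arrays did not overlap, and the change was -0.68 ± 0.08 (limma adjusted p = 7.79e-06). Mrps35, a mitochondrion-specific small subunit protein, read 8.85, 8.94 and 8.79 at 0 h and 8.36, 8.15 and 8.28 at 4 h, a change of -0.60 ± 0.07 (adjusted p = 5.67e-06). Mrpl33 changed by -0.58 ± 0.09, Mrps26 by -0.47 ± 0.08, Mrpl4 by -0.45 ± 0.08, Mrpl18 by -0.34 ± 0.09 and Mrpl49 by -0.26 ± 0.07, all without overlap. The dimmer probe set for Mrpl49 changed by -0.20, which did not pass. The arrays of Mrps16 did overlap, and its change of -0.23 ± 0.09 had an adjusted p of 0.0483.

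After 14 h of ConA 68 members rose, 0 fell and 8 did not pass against 0 h (limma), with 42 rises in the large and 26 in the small subunit. Of all genes tested, 36.6% rose and 31.9% fell. No member fell at an unadjusted p under 0.05 either. The median change was 0.78, 0.77 in the large and 0.79 in the small subunit, the range -0.15 to 1.997, and 22 members (28.9%) rose at least 2-fold, against 10.5% of all genes. Without both arrays with the weak spike-in the count was again 68 up and 0 down. The largest changes were those of Mrps6 (1.997 ± 0.19), Mrps25 (1.56 ± 0.13), Mrpl20 (1.43 ± 0.10), Mrpl45 (1.42 ± 0.06), Mrpl54 (1.38 ± 0.12), Mrpl17 (1.35 ± 0.09), Mrps10 (1.32 ± 0.07) and Mrpl21 (1.31 ± 0.08). Mrpl45, which anchors the ribosome to the inner membrane beside the tunnel exit, read 8.06, 8.10 and 8.13 at 0 h, 8.79, 8.68 and 8.69 at 4 h and 9.46, 9.50 and 9.61 at 14 h. Its 3 times were separate on every array (14 h against 0 h, adjusted p = 1.85e-10). The 8 that did not pass at 14 h were Mrpl28 (0.26), Mrps24 (0.23), Mrps9 (0.21), Mrpl18 (0.16), Mrpl58 (0.15), Mrpl57 (0.11), Mrpl33 (0.04) and Mrps26 (-0.15).

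Between 4 h and 14 h, 59 members rose, 0 fell and 17 did not pass (limma), against 27.4% of all genes that rose and 21.5% that fell. Here too 0 fell at an unadjusted p under 0.05. Without both arrays with the weak spike-in 63 rose and 0 fell. Probe sets disagreed in this comparison: fitted on their own, dimmer probe sets of 6 genes (Mrpl11, Mrpl15, Mrpl21, Mrps10, Mrps14 and Mrps21) were called opposite to the brighter ones. The group mean was highest at 14 h in 72 of the 76 genes (94.7%), against 33.8% of all genes. It was highest at 4 h in 3 and at 0 h in 1, and it climbed at each step in 59 (77.6%), against 22.9% of all genes. The lowest mean was that of 0 h in 62 genes (81.6%, against 42.3% of all genes), that of 4 h in 14 (18.4%, against 30.5%) and that of 14 h in 0 (against 27.2%).

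The course differed between members. Setting 4 h against the mean of 0 h and 14 h, 15 members (19.7%) were higher, 18 (23.7%) lower and 43 did not pass (limma). Of all genes, 27.2% were higher and 29.6% lower. Without both arrays with the weak spike-in 15 were higher and 22 lower, against 2351 and 2546 of 9030 genes. Among those highest relative to this mean were Mrps6 (0.81), Mrpl17 (0.66), Mrpl54 (0.51), Mrps18b (0.51) and Mrps10 (0.43), whose rise lay mainly in the first 4 h. For Mrps18b and Mrpl17 the differences between 14 h and 4 h were 0.01 and 0.02 and did not pass. Mrps25 and Mrpl48 had the largest rises from 4 h to 14 h, both 1.03 (standard errors 0.13 and 0.08, adjusted p = 2e-05 and 2.21e-07). Mrpl48 read 9.25, 9.28 and 9.19 at 0 h, 9.39, 9.21 and 9.22 at 4 h and 10.22, 10.34 and 10.35 at 14 h. Its first 2 times overlapped, and all 14 h arrays stood above them. Mrps31 rose by 0.83 ± 0.09 and Mrpl45 by 0.80 ± 0.06 over the same interval.

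Other members dipped at 4 h. The difference of 4 h from the mean of the end points was -0.75 for Mrpl58, -0.69 for Mrps35, -0.60 for Mrpl33 and -0.59 for Mrpl4, and each passed the test. It was -0.50 for Mrpl48 too, whose level at 4 h was close to that at 0 h and which only rose later. Mrpl58 returned to 10.89, 10.80 and 10.83 at 14 h, a rise of 0.83 ± 0.08 over 4 h, and its 14 h arrays overlapped those at 0 h. Mrpl33, the counterpart of a small bacterial large subunit protein, read 10.49, 10.65 and 10.49 at 0 h, 10.08, 9.92 and 9.91 at 4 h and 10.58, 10.60 and 10.58 at 14 h. Its 0 h and 14 h arrays overlapped and its 4 h arrays lay below both.

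**Figure D4:**
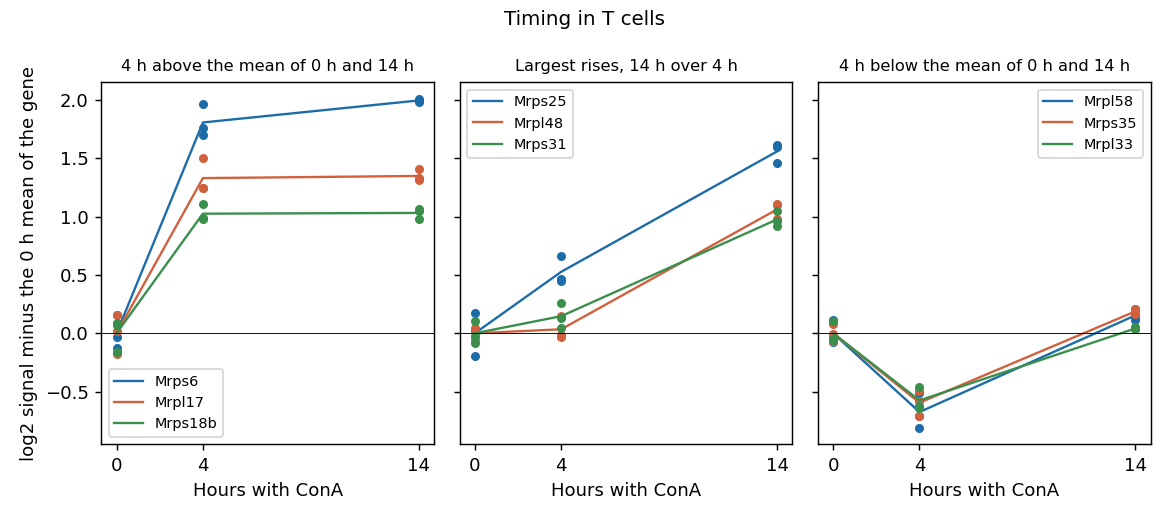
log2 signal in T cells minus the gene's 0 h mean, against hours with ConA, for 9 genes, with points for single arrays and lines through the means of 3. Mrps6, Mrpl17 and Mrps18b were near their 14 h level at 4 h, Mrps25, Mrpl48 and Mrps31 rose mainly after 4 h, and Mrpl58, Mrps35 and Mrpl33 were lowest at 4 h.

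Markers moved along the T cell course as well. The T cell list averaged 11.58 to 11.61 at 0 h, 10.81 to 10.94 at 4 h and 10.80 to 10.82 at 14 h. The erythroid list averaged 6.74 to 6.82, 4.66 on every array and 4.19 to 4.28 at these times, and 5 of 5 tested fell at both later times. The myeloid list averaged 4.74 to 5.14, 5.33 to 5.51 and 3.61 to 3.77, with Adgre1, Cd14 and Csf1r at background throughout. The natural killer list averaged 7.79 to 8.03, 7.13 to 7.20 and 7.13 to 7.18. The 3′ minus 5′ difference of the actin control probe sets, a sign of RNA length, was 0.39 to 0.49 on the 0 h arrays, 0.56 to 0.91 at 4 h and 0.62 to 0.64 at 14 h, so the 0 h arrays did not overlap the later ones; in B cells it was 0.42 to 0.51 with LPS and 0.47 to 0.50 at 0 h. The part of the markers and of RNA length in the members' course was not tested.

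Before activation the members stood lower in B cells than in T cells. At 0 h, 3 were higher in B cells, 65 lower and 8 did not pass (limma), while 25.5% of all genes were higher and 51.1% lower. By subunit, 3 large subunit genes were higher and 38 lower, and 0 small subunit genes were higher and 27 lower. The median difference, B minus T, was -0.55 for the members and -0.27 over all genes, which leaves -0.28 between them. Under cyclic loess scaling the median of all genes was -0.04, the members stood at -0.27 relative to it, and 7 members were higher and 47 lower. With that scaling 3138 of 9078 genes were higher and 3629 lower. Without both T cell arrays with the weak spike-in 4 were higher and 63 lower. The myeloid list averaged 8.47 to 8.53 in B cells and 4.74 to 5.14 in T cells at 0 h, the erythroid list 8.69 to 8.81 in B cells and 6.74 to 6.82 in T cells, and the 18S ribosomal RNA control probe set lay at 5.53 to 6.62 over all B cell arrays and 9.24 to 11.65 over all T cell arrays. Their part in this difference was not tested. Dimmer probe sets of 5 genes (Mrpl1, Mrpl11, Mrps10, Mrps2 and Mrps21) were called opposite to the brighter ones.

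Mrps6 read 5.54, 6.50 and 6.34 in B cells, against 9.15, 9.34 and 9.06 in T cells. This was the widest gap of any member, -3.06 ± 0.19 (limma adjusted p = 3.31e-09). Mrpl58 read 8.74, 8.77 and 8.79 in B cells, against 10.61, 10.80 and 10.65 in T cells, a difference of -1.91 ± 0.08 (adjusted p = 6.53e-11). No B cell array of either gene reached the T cell arrays. Mrps27 differed by -2.06 ± 0.16, Mrps24 by -1.46 ± 0.13 and Mrps28 by -1.39 ± 0.10. The 3 genes higher in B cells were Mrpl16 (0.45 ± 0.05), Mrpl43 (0.34 ± 0.07) and Mrpl3 (0.30 ± 0.06). For Mrpl3 the mean over all its probe sets gave 0.18, which did not pass.

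The responses of B and T cells at 4 h use no array in common, so they could be set side by side. Of the 63 members that rose with LPS, 47 (74.6%) also rose after 4 h of ConA, and these were 95.9% of the 49 that rose there. Of all 76 members, 82.9% rose with LPS and 64.5% after 4 h of ConA. Over all genes, 2186 rose in both, 64.3% of those that rose with LPS and 72.3% of those that rose with ConA. Among all genes 37.6% rose with LPS and 33.4% after 4 h of ConA. Mrpl49, Mrpl18 and Mrps16 fell in both cell types, and Mrpl58 and Mrps35 rose with LPS (0.61 and 0.28) and fell with ConA. The dimmer probe set for Mrpl49 passed in B cells only (-0.39), and its change of -0.20 with ConA did not pass. Across the 76 genes the 2 changes had a Pearson correlation of 0.76 and a Spearman correlation of 0.75, against 0.52 and 0.62 across all genes; genes share arrays and are not independent. Between LPS at 4 h and ConA at 14 h, 61 members rose in both. They were 96.8% of those that rose with LPS and 89.7% of those that rose with ConA, against 63.9% and 65.6% over all genes. A further 3 members fell with LPS and rose at 14 h of ConA. At 14 h 89.5% of all members rose, against 36.6% of all genes. With so many members rising, these shares cannot show a link between the responses.

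The test of the difference itself, the LPS change in B cells minus the 4 h ConA change in T cells, was positive for 50 members, negative for 4 and did not pass for 22 (limma). Of all genes, 31.3% were positive and 34.8% negative. The median difference was 0.53, and without both arrays with the weak spike-in the counts were 52 and 4. Mrps27 differed most, by 2.35. Mrpl22, which lines the peptide tunnel, read 10.74, 10.72 and 10.66 with LPS, against 8.99, 8.90 and 9.33 in 0 h B cells. In T cells it read 10.002, 10.21 and 9.91 at 0 h and 10.05, 9.95 and 9.85 at 4 h. Its arrays were apart in B cells and overlapped in T cells, with changes of 1.63 ± 0.11 (adjusted p = 4.78e-09) and -0.09 ± 0.11 (adjusted p = 0.483), and the difference of 1.73 was called. The 4 negative differences were Mrps16 (-0.55), Mrpl49 (-0.51), Mrps18c (-0.41) and Mrpl43 (-0.37). For Mrpl49 the dimmer probe set gave -0.19, which did not pass. The members started lower in B cells: their mean was 8.72 at 0 h and 9.61 with LPS, against 9.35 at 0 h and 9.71 at 4 h in T cells. Mrps27, Mrps6 and Mrps28 were also among the members with the widest 0 h gaps. The part of the 0 h level in these differences was not tested. The dose, the activator and the cell type all differ between the 2 responses and cannot be told apart.

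**Figure D5:**
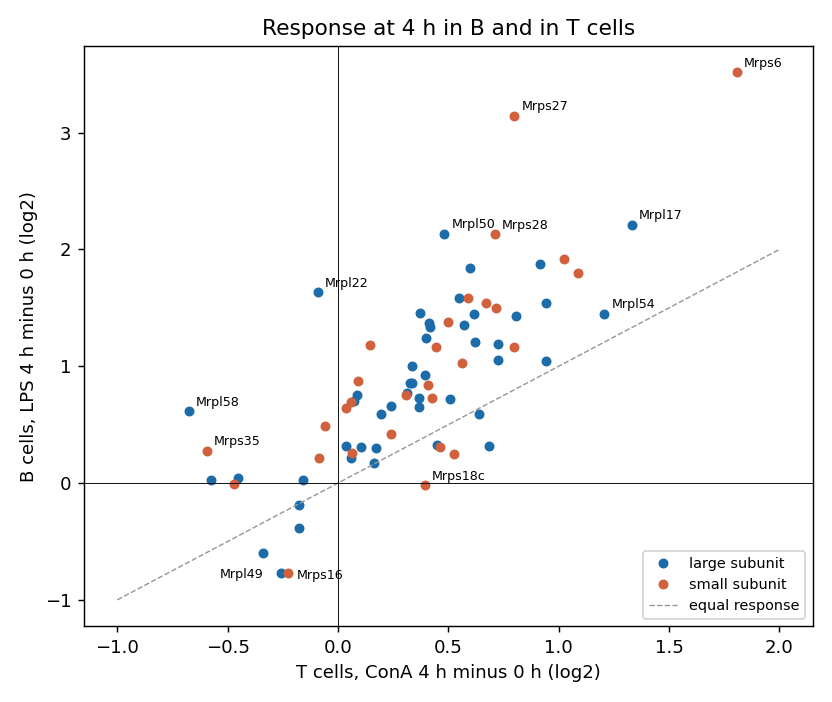
Change of each of the 76 genes after 4 h of LPS in B cells (vertical axis, log2) against its change after 4 h of ConA in T cells (horizontal axis, log2), with a dashed line for equal changes. Most genes lie above the line, Mrps27 and Mrpl22 far above it, and Mrps18c below it.

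Mrpl10, Mrpl11 and Mrpl12 form the base and the flexible arms of the stalk that recruits translation factors to the large subunit. Mrpl12, the arm protein, read 11.49, 11.64 and 11.57 with LPS, against 9.59, 9.68 and 9.82 in 0 h B cells. In T cells it read 10.27, 10.34 and 10.11 at 0 h, 11.26, 11.09 and 11.11 at 4 h and 11.39, 11.35 and 11.53 at 14 h. It was thus apart from 0 h on every array of the activated cells, with changes of 1.87 ± 0.09 with LPS, 0.91 at 4 h and 1.18 at 14 h of ConA. Mrpl11, at the base, changed by 0.59, 0.64 and 0.94 in the same order, all called. Mrpl10, which holds the arms, changed by 0.59 ± 0.14 with LPS (limma adjusted p = 0.00115) and by 0.41 at 14 h (adjusted p = 0.0146), and its 0.19 at 4 h did not pass (adjusted p = 0.224). Its T cell calls changed with the setting: the 14 h change was 0.34 under cyclic loess and 0.29 without T cells at 0 h replicate 2, neither of which passed, and without T cells at 4 h replicate 1 the 4 h change was 0.33 and passed.

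Mrps18a, Mrps18b and Mrps18c are paralogues that share an ancestor with a single bacterial protein and occupy different places in the ribosome. Mrps18a read 10.06, 10.03 and 10.01 with LPS, against 8.62, 8.51 and 8.47 in 0 h B cells, a change of 1.498. Mrps18b read 10.85, 10.79 and 10.72 with LPS, against 8.77, 9.005 and 8.83 in 0 h B cells, a change of 1.92. Mrps18c read 9.87, 9.79 and 9.81 with LPS, against 9.83, 9.82 and 9.88 in 0 h B cells, a change of -0.02 (limma adjusted p = 0.845). The first 2 paralogues were apart between the groups and the arrays of Mrps18c overlapped. In T cells Mrps18c rose by 0.39 at 4 h (adjusted p = 0.000434) and by 0.84 at 14 h (adjusted p = 3.08e-07). The 4 h changes there were 0.72 for Mrps18a and 1.03 for Mrps18b, and at 14 h 0.87 and 1.03.

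Mrps12, the decoding centre protein whose bacterial counterpart carries streptomycin resistance mutations, read 9.31, 9.32 and 9.23 with LPS, against 8.34, 8.23 and 8.19 in 0 h B cells. Its arrays did not overlap, and it rose by 1.03. It rose by 0.56 at 4 h and 0.79 at 14 h of ConA, and at 0 h its difference, B minus T, was -1.23. Its rise between 4 h and 14 h, 0.23, had an adjusted p of 0.0442 in limma and did not pass in 12 of the alternatives tried. Among these, it was 0.16 without T cells at 4 h replicate 2, 0.20 without replicate 3 of that group, and 0.20 and 0.21 without replicates 2 and 3 at 14 h; the others were cyclic loess, the replicate block, no filter on low values, and leaving out any LPS array, B cells at 0 h replicate 2 or T cells at 0 h replicate 1.

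Where a gene had several probe sets that could be tested, they mostly moved together against 0 h of the same cells, and less so in other comparisons. Fitted on their own, 123 probe sets of the 76 genes were tested, and 29 genes had more than 1. With LPS and at 4 h and 14 h of ConA against 0 h, 0 genes had probe sets called in opposite directions. All probe sets of a gene had the same sign in 27, 25 and 26 of the 29 genes. In these comparisons 44, 24 and 35 of the 47 dimmer probe sets were called in either direction. One that was not called could not count as opposite. Of all genes, each by its brightest probe set, 37.6% rose and 42.3% fell with LPS. These shares were 33.4% and 32.5% at 4 h and 36.6% and 31.9% at 14 h of ConA. Between 4 h and 14 h only 18 of the 29 genes kept 1 sign, and 6 had opposite calls. For B against T cells at 0 h these numbers were 19 and 5. Of the 76 probe sets used, 7 may match several transcripts and 2 may cross-hybridise, by the suffix of their names, and that of Mrps6 is among these 7.

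Other nuclear genes for mitochondrial gene expression were counted from lists, which were not tested as sets. Of all genes tested, 37.6% rose and 42.3% fell with LPS. At 4 h of ConA these shares were 33.4% and 32.5%, and at 14 h 36.6% and 31.9%. Of 4 mitochondrial ribosome proteins with other symbols, 4 rose with LPS, 2 rose and 1 fell at 4 h of ConA, and 4 rose at 14 h. Gadd45gip1, also a large subunit protein, rose by 1.89 ± 0.12 with LPS (limma adjusted p = 2.76e-09) and Dap3, a GTP-binding small subunit protein, changed by -0.25 ± 0.06 at 4 h of ConA. Among 9 translation factors 5 rose and 2 fell with LPS, 4 rose and 1 fell at 4 h, and 5 rose and 1 fell at 14 h. The recycling factor Mrrf, the elongation factor Gfm1 and the elongation factor Tufm rose by 2.18, 1.62 and 1.57 with LPS and by 1.16, 1.12 and 1.08 at 14 h of ConA. Of 24 assembly and ribosomal RNA processing factors, 17 rose and 3 fell with LPS, 12 rose and 4 fell at 4 h, and 12 rose and 1 fell at 14 h. The ribosomal RNA methyltransferase Mrm3 rose by 2.49 ± 0.16 with LPS and the GTPase Noa1 by 2.01 ± 0.09.

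Mitochondrial ribosomal proteins reach the organelle through the import machinery. Of 24 import genes 23 rose and 0 fell with LPS, 21 rose and 0 fell at 4 h of ConA, and 23 rose and 1 fell at 14 h. Among all genes tested 37.6% rose and 42.3% fell with LPS, 33.4% and 32.5% at 4 h, and 36.6% and 31.9% at 14 h. Tomm40, the outer membrane channel, rose by 2.47 ± 0.11 with LPS (limma adjusted p = 3.85e-11), by 1.40 at 4 h and by 1.64 at 14 h. Among 9 genes of mitochondrial DNA replication and transcription 6 rose and 3 fell with LPS, 3 rose and 1 fell at 4 h, and 3 rose and 0 fell at 14 h. The mitochondrial topoisomerase Top1mt rose by 4.53 ± 0.14 with LPS, while Polg2, the accessory subunit of the mitochondrial DNA polymerase, changed by -1.80 ± 0.14. Of 15 mitochondrial tRNA synthetases 7 rose and 3 fell with LPS, 4 rose and 2 fell at 4 h, and 8 rose and 2 fell at 14 h. In these last 2 lists the share that rose at 4 h was no higher than the 33.4% of all genes. Yars2, for tyrosine, rose by 2.19 and Cars2, for cysteine, changed by -2.63 with LPS.

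Of 8 regulators of mitochondrial biogenesis, 5 rose and 2 fell with LPS, 3 rose and 2 fell at 4 h of ConA, and 3 rose and 3 fell at 14 h. The ConA counts lie near the shares of all genes, of which 33.4% rose and 32.5% fell at 4 h. At 14 h these shares were 36.6% and 31.9%, and with LPS 37.6% and 42.3%. Myc rose by 4.87 ± 0.43 with LPS, by 1.91 at 4 h and by 2.21 at 14 h of ConA. The coactivator Pprc1 rose by 2.36 ± 0.07 with LPS, and its relative Ppargc1b changed by -1.39 with LPS and -1.52 at 4 h. Gabpb1, a subunit of the ETS factor GABP, rose by 1.89 at 4 h, and Nrf1 changed by -1.47 ± 0.06 at 14 h of ConA (limma adjusted p = 1.59e-10). Cytoplasmic ribosomal proteins served as the other ribosome of the cell. Of 44, 7 rose and 12 fell with LPS (median -0.05), 3 rose and 15 fell at 4 h (-0.10), and 6 rose and 6 fell at 14 h (-0.03).

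Genes that start near a member on the other strand did not always move with it. Whether such genes share a promoter was not tested. Among the 67 members with a promoter entry, 24 (35.8%) had a start on the other strand at most 1000 bases upstream of their own, or overlapping it by at most 200 bases, against 1543 of all 17491 genes (8.82%). The share was not tested, and the 17491 are all protein-coding genes with a promoter entry, not only genes tested on the arrays. Mrpl46, a large subunit protein whose window is shown above, and Mrps11, 42 bases away, are both members. Mrpl46 read 9.09, 9.21 and 9.33 with LPS, against 7.95, 7.68 and 7.65 at 0 h, and Mrps11 read 7.64, 7.19 and 7.19 with LPS, against 6.50, 6.49 and 6.52 at 0 h. Both rose without overlap, by 1.45 and 0.84 with LPS, and by 0.96 and 1.01 at 14 h of ConA. Mrpl49 and Fau, 192 bases apart, both fell with LPS (-0.77 and -0.48). Mrpl18 fell by 0.60, while Tcp1, a chaperonin subunit 238 bases away, rose by 1.298. Mrps27 and Ptcd2, 108 bases apart, changed by 3.15 and -0.34, and Mrpl43 and Twnk, 116 bases apart, by 0.32 and 2.38. These pairs were chosen after their values were seen.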

How the data were processed

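Per the submitters' processing notes the authors used GCRMA, which corrects background and scales arrays to each other, and the deposited signals are on the log2 scale. The sources used here give no version of it. Values run from 2.24, a floor, to 15.87. Equal RNA mass was labelled, so a change in RNA per cell is not visible. Of 45101 probe sets, 34958 have 1 gene symbol in the platform's gene table, 932 several and 9211 none; 34754 of the 34958 matched RefSeq and 0 symbols changed. Genes with a highest group mean of at least 5 were tested in 1 group-means model over 15 arrays (limma 3.58.1, R 4.3.3, default prior, 10 residual degrees of freedom), with Benjamini-Hochberg adjustment per comparison. The number of arrays limits the precision. The steps were tested on simulated data. Named were the 8 largest rises and falls against 0 h of the same cells, and 5 elsewhere, among called members with arrays that do not overlap (no such rule for the difference between cell types and for 4 h against its neighbours), the stalk members, Mrps12 and the Mrps18 paralogues. Up to 3 called genes per list were named. Members that did not pass, dips and other examples were picked with their values in view. The members and lists were chosen with earlier results of these data known. Alternatives were other scalings, filters and priors, other probe set rules, the replicate number as a block, a spike-in covariate and leaving out arrays; a fit of each probe set was added after seeing the data.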

Additional observations from a re-analysis of the deposited data

Results flagged for a closer look

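The response at 4 h differed between LPS-treated B cells and ConA-treated T cells by a test of the difference itself (limma interaction term, adjusted p under 0.05) in 50 members with a positive and 4 with a negative difference, against 31.3% and 34.8% of all genes tested. Among the named members the difference, B minus T, was 2.35 for Mrps27, 1.73 for Mrpl22, 1.71 for Mrps6, 1.65 for Mrpl50 and 1.42 for Mrps28. It was -0.55 for Mrps16, -0.51 for Mrpl49, -0.41 for Mrps18c and -0.37 for Mrpl43. For Mrpl49 a dimmer probe set gave -0.19, which did not pass. Mrpl12 differed by 0.96, Mrps18b by 0.89, Mrps18a by 0.78 and Mrps12 by 0.47. Mrpl10 differed by 0.39, which did not pass (adjusted p = 0.0848) and passed in 5 of the alternatives. Groups of 3 arrays were not tested for outlying samples.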

How the results depend on the processing

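Of 336 alternative counts of members called up or down, 331 stayed within 1.5 times the reported count and 5 did not. This limit is lenient: with 76 members the largest counts could not exceed it upward. Some alternatives also left out arrays that a comparison does not use. The members that fell at 14 h against 0 h numbered 1 under cyclic loess, and 0 to 1 when single arrays were left out (1 without T cells at 0 h replicate 3), where 0 was reported. Those that fell between 4 h and 14 h numbered 2 with the mean over all probe sets of a gene, where 0 was reported. Those higher in B than in T cells at 0 h numbered 7 under cyclic loess and 6 with the mean over all probe sets, where 3 was reported. In the same order, 3138 of 9078, 2431 of 8122 and 2302 of 9045 genes were higher. Of 110 named values, 96 kept their side of the threshold under every alternative and none changed direction with a call; 9 lost and 5 gained a call under at least 1. The labels do not say what a replicate number shares. Same-numbered arrays of different groups correlated at -0.50 to 0.27 in their deviations from the group means, and differently numbered arrays at -0.48 to 0.62. With 3 arrays per group these ranges cannot decide whether the numbers pair the samples. With the replicate block the counts up and down were 63 and 4 with LPS, 50 and 7 at 4 h and 67 and 0 at 14 h of ConA, 56 and 0 between 4 h and 14 h, 3 and 65 at 0 h, 51 and 4 for the difference between responses, and 15 and 17 for 4 h against its neighbours. For the last count, leaving out single arrays gave 13 to 16 higher and 13 to 24 lower. Low signals limit precision: Mrps27 averaged 4.16 in 0 h B cells, on a scale whose floor is 2.24.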
